A study of Homo sapiens with 20 samples.

Results

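RELA, RELB, REL, NFKB1 and NFKB2 encode the 5 subunits of the transcription factor NF-kB, and BCL3 encodes a nuclear protein that binds some of its dimers. These 6 genes were taken from the 19836 genes that the annotation of the Affymetrix U133 Plus 2.0 array names, by gene symbol alone, and every probe set of each was followed, 14 in all. The arrays profiled 5 human T-ALL cell lines, which grow from T cell acute lymphoblastic leukaemia and are each 1 established culture of a single leukaemia. Their names are KOPT-K, T-ALL1 (TALL-1 in the culture collection), HPB-ALL, DND41 and CEM. Each was treated for 16 h with the NBD peptide, which copies the NEMO-binding domain and keeps NEMO (IKKγ) from binding the kinases IKKα and IKKβ, or with a control peptide. There were 2 arrays for each line and peptide, 10 groups and 20 arrays in total. The labels disagree on the peptide dose (100 µM in the descriptions, 100 mM in the source names), and no group without any peptide was analysed here.

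NF-kB subunits act as dimers that IkB proteins hold in the cytoplasm. In the canonical arm, the kinase complex that contains NEMO marks IkB for destruction and frees dimers such as RELA with p50. In the non-canonical arm, IKKα triggers the trimming of p100 to p52, the partner of RELB. RELA, RELB and REL carry the domains that activate transcription, whereas p50 and p52, cut from the NFKB1 and NFKB2 products p105 and p100, lack them. BCL3 belongs to the IkB family by structure but works in the nucleus with p50 and p52 dimers. Several of these genes are themselves NF-kB targets, RELB, REL, NFKB1, NFKB2 and BCL3 among them, so the system feeds back on its own parts.

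The NF-kB consensus, a motif of 10 letters, was looked up on both strands of the promoter windows of these genes (RefSeq, GRCh38.p14, 250 bases before to 50 bases after each start), because feedback of this kind runs through such sites. Windows of 5 of the 6 genes were found, for RELA, REL, NFKB1, NFKB2 and BCL3, and not for RELB. A match stood in 5 of their 9 windows and in 4 of the 5 genes, against 11.3% of all 35116 windows and 13.3% of the 27305 genes that have one. Both RELA windows had none. The stretches around the matches are given here on the plus strand with the matches in capitals.
REL, chr2:60881482-60881582: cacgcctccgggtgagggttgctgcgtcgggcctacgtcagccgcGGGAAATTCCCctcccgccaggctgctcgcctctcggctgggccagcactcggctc
NFKB1, chr4:102501265-102501364: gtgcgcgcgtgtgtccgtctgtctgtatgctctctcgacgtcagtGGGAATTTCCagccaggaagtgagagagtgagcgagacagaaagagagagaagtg
NFKB2, chr10:102394426-102394554: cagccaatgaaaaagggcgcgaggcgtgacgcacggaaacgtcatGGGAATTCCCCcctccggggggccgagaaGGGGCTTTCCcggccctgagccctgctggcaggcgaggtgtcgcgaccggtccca
NFKB2, chr10:102395639-102395738: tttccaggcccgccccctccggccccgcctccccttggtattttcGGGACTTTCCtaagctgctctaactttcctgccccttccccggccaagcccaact
BCL3, chr19:44748665-44748757: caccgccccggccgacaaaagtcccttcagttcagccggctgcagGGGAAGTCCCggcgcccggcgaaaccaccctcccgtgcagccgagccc

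In the REL stretch, 2 matches on opposite strands overlap, the first beginning 47 bases before the start of the gene. The NFKB1 match begins 49 bases before the start. The longer NFKB2 stretch holds 3 matches, of which 2 overlap, and the other NFKB2 stretch comes from a window further along the gene, in which a second match is not shown. A match describes the letters only, and binding was not measured.

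Deposited values were linear intensities, and levels and differences below are on the log2 scale unless called intensities. Values of KOPT-K and T-ALL1 carry up to 7 decimals and have array means of 386.9 to 396.1, while values of HPB-ALL, CEM and DND41 carry 2 decimals and have array means of 341 to 347.7, so the 2 sets are treated as separate processing runs and levels are compared only within a run. Arrays of 1 group correlated at 0.987 to 0.997 across probe sets, and the lowest value belonged to the T-ALL1 control arrays. Those arrays also stood apart in 1 measure of RNA quality: the excess of the 3′ over the 5′ actin probe set on the log2 scale, which grows as RNA degrades, was 1.07 and 0.992 with NBD peptide and 3.16 and 2.05 with control peptide in T-ALL1. In CEM it was 1.71 and 1.81 with NBD peptide and 1.44 and 1.45 with control peptide. The same excess for GAPDH set apart only the first T-ALL1 control array, at 0.768. The second was at 0.214, beside 0.117 and 0.199 with NBD peptide in T-ALL1, and the highest value in the other lines was 0.402, in CEM. Of 7 T cell markers measured, 5 reached the filter value on all 20 arrays, while CD2 did so on 16 and CD5 on 18. The myeloid markers LYZ, CD14 and MPO and the B cell marker MS4A1 reached it on none, although CD79A, a B cell gene, averaged 10.8 in DND41 and reached it on 19 arrays. PAX5 reached it on 7, CSF1R on 8, EPCAM on 2, KRT18 on 3 and COL1A2 on none, while COL1A1 did so on all 20.

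All 14 probe sets were measured on every array, and 10 of them reached the filter value, an intensity of 31.96 (4.998 on the log2 scale), on at least 2 arrays and were tested. The 4 that did not were 1 of the 5 for REL and all 3 for NFKB2. The 2 for RELA, the 1 for RELB, the 1 for NFKB1 and the other 4 for REL reached it on all 20 arrays. The 2 for BCL3 passed through a few arrays only: 204907_s_at on 4 KOPT-K and 3 T-ALL1 arrays, and 204908_s_at on 2 HPB-ALL arrays.

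Averaged over the 5 lines, RELB transcript was higher with NBD peptide than with control peptide, by 0.35 ± 0.08 (SE) or 1.28-fold, and it alone of the 6 genes passed the test. In limma's moderated test with Benjamini-Hochberg adjustment over 26406 probe sets, 1 of the 10 tested member probe sets was called higher and none lower, against a background of 2.13% of all probe sets called higher and 4.03% lower (6.17% in all). An unadjusted p below 0.05 was reached by 5 of the 10, and by 21% of all probe sets. The 5 were RELB, the REL probe sets 228812_at, 206036_s_at and 239486_at, and the BCL3 probe set 204908_s_at. REL supplied more of the 10 than any other gene, so these counts and the median below are not counts of separate genes. The median average effect of the 10 was 0.13, beside -0.00 over all probe sets tested. The effect was above 0 in all 5 lines for 3 of the 10 (1 for RELB and 2 for REL) and below 0 in all 5 for none, where the background was 4.81% and 7.39%. In T-ALL1, however, these 3 effects were only 0.05 for RELB, 0.02 for 228812_at and 0.03 for 206036_s_at. Leaving out single arrays took them as low as -0.15, -0.06 and -0.16, so the count rests on single T-ALL1 arrays. Since no label states that paired arrays are separate cultures, these p-values measure the spread between arrays, which may be technical.

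**Figure D1:**
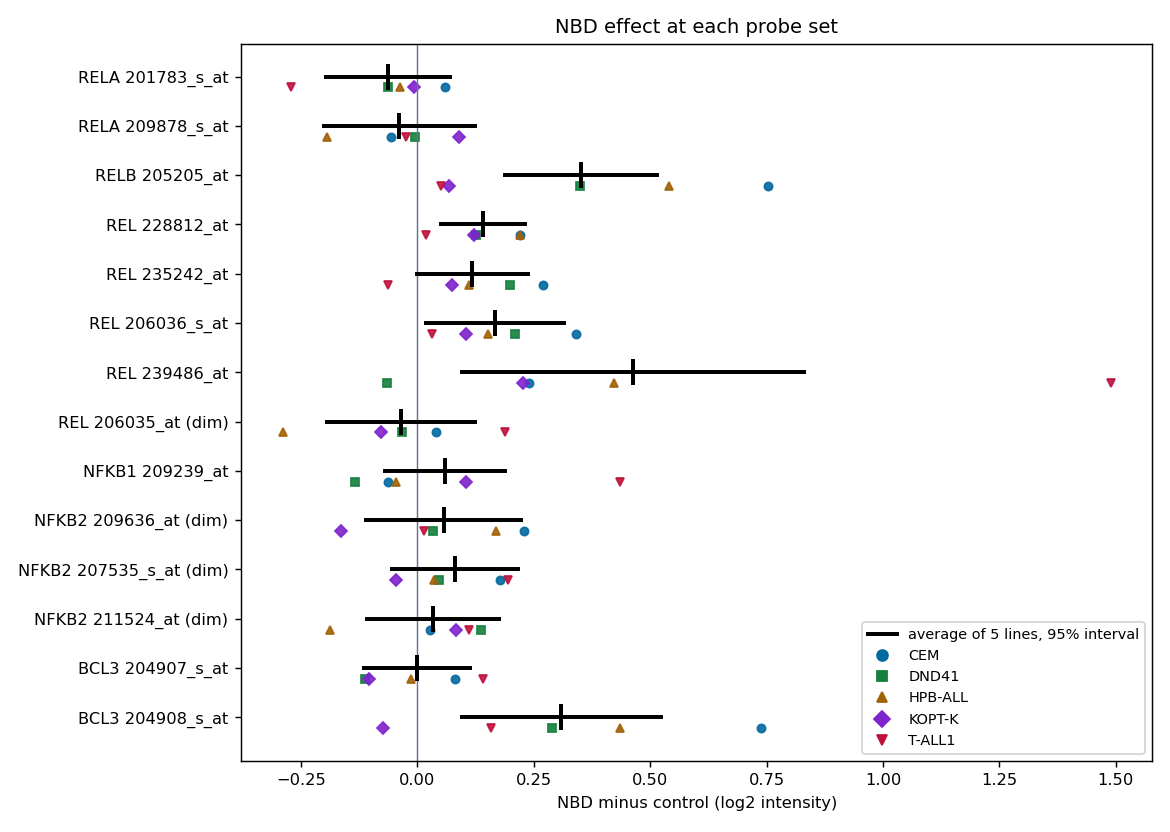
NBD minus control difference in log2 intensity (horizontal axis) at each of the 14 probe sets. Black ticks and bars are the average of 5 lines with its 95% interval, and coloured markers are the single lines; "dim" marks the 4 probe sets below the filter. RELB lies right of 0 in every line, with CEM at 0.75, and the REL probe set 239486_at is drawn far to the right by T-ALL1 alone, at 1.49.

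RELB encodes the activating subunit that pairs mainly with p52 in the non-canonical arm. At its probe set 205205_at, CEM had intensities of 69.6 and 60.1 with NBD peptide and 42.3 and 34.9 with control peptide. HPB-ALL had 80.5 and 79.4 with NBD peptide and 63.3 and 47.8 with control peptide. DND41 had 56.6 and 47.0 with NBD peptide and 39.0 and 42.1 with control peptide. In these 3 lines every NBD array lay above every control array. KOPT-K had 39.5 and 36.8 with NBD peptide and 34.8 and 38.0 with control peptide, and T-ALL1 had 40.5 and 51.2 with NBD peptide and 50.6 and 38.1 with control peptide. In both of these lines the peptides overlapped, and all values lay between 34.8 and 51.2.

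The RELB differences were 0.75 ± 0.17 in CEM (1.68-fold), 0.54 in HPB-ALL, 0.35 in DND41, 0.07 in KOPT-K and 0.05 in T-ALL1. No single line passed on its own (adjusted p = 0.0684 in CEM and 0.274 in HPB-ALL, limma), whereas the average over lines did (adjusted p = 0.0150, 95% interval 0.19 to 0.52). The F-test of a difference between lines did not pass (unadjusted p = 0.0484, adjusted p = 0.296). Fitted alone, CEM, DND41 and HPB-ALL gave an average of 0.55 (adjusted p = 0.0177) and KOPT-K with T-ALL1 gave 0.06 (adjusted p = 0.880), so the value rests on the lines of 1 processing run. Without CEM the average was 0.25 (adjusted p = 0.127) and without HPB-ALL 0.31 (adjusted p = 0.0735), and with the 5 lines as the replicates its adjusted p was 0.327, a fit in which no probe set on the array passed. The call held without any 1 of the 20 arrays. With the actin covariate the average was 0.47 (adjusted p = 0.0117) and the T-ALL1 difference 0.65 (adjusted p = 0.395).

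**Figure D2:**
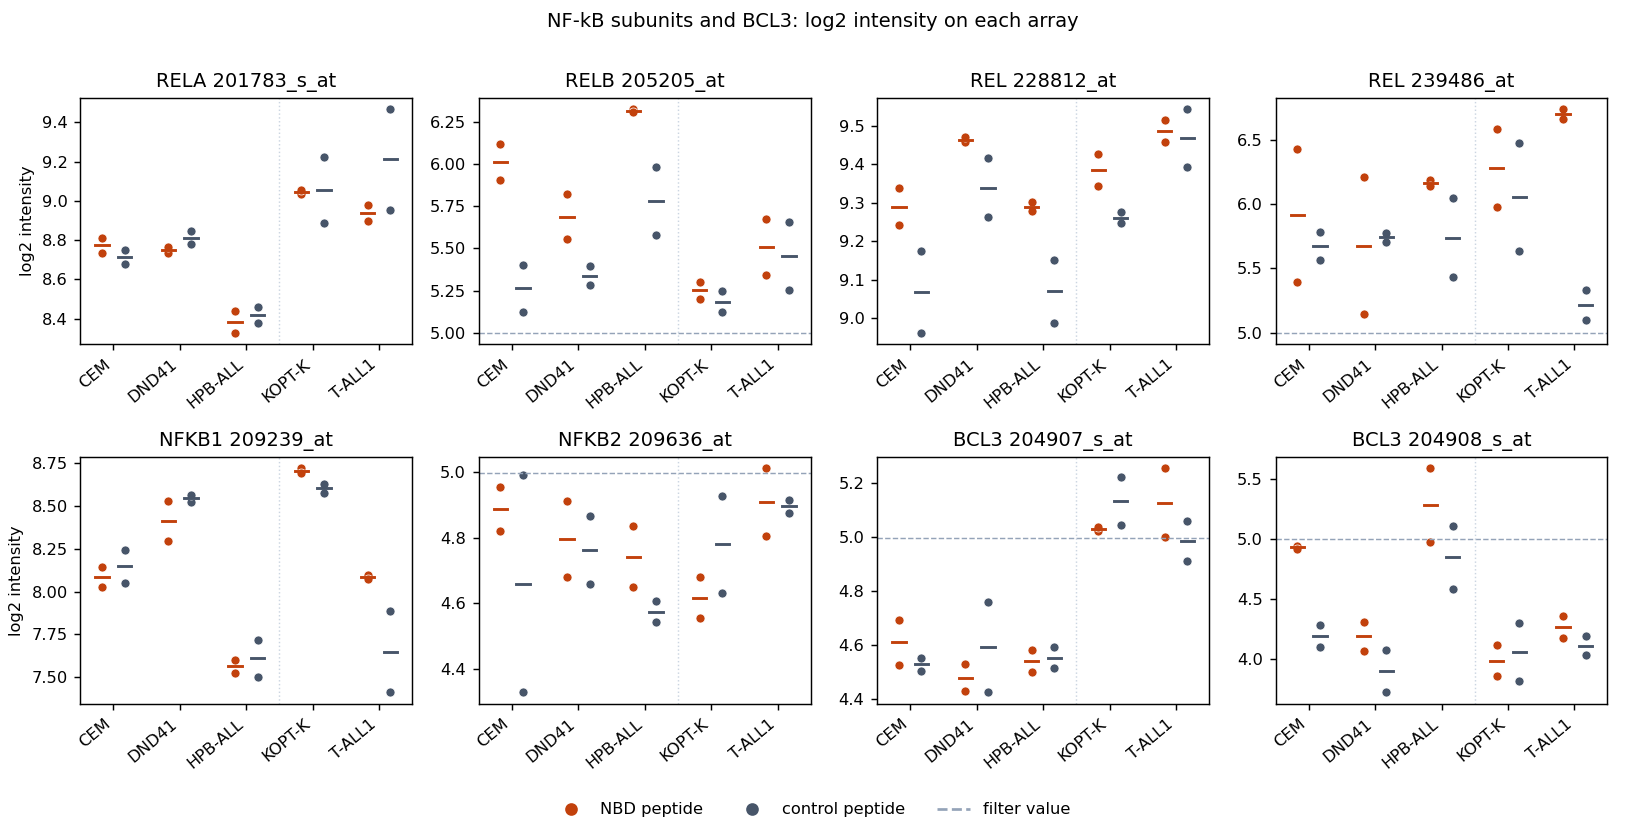
Log2 intensity (vertical axis) on each array of the 5 lines for 8 probe sets, NBD peptide in orange and control peptide in grey, with short bars for group means of 2 arrays; the dotted vertical line parts the processing runs and the dashed line is the filter value of 4.998. RELB is higher on both NBD arrays of CEM, DND41 and HPB-ALL, and the T-ALL1 control arrays are widely spaced for RELA and NFKB1.

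REL encodes c-Rel, the activating subunit typical of lymphocytes. Its brightest probe set, 228812_at, had intensities of 647.3 and 605.1 with NBD peptide and 498.9 and 578.5 with control peptide in CEM, and HPB-ALL had 630.9 and 620.9 with NBD peptide and 569.0 and 507.6 with control peptide. DND41 had 703.6 and 708.9 with NBD peptide and 682.8 and 614.0 with control peptide, and KOPT-K had 649.1 and 687.6 with NBD peptide and 607.7 and 619.8 with control peptide. NBD arrays therefore lay above control arrays in 4 lines. T-ALL1, with 702.6 and 732.0 with NBD peptide and 746.2 and 672.6 with control peptide, overlapped. The average difference was 0.14 ± 0.04 or 1.10-fold and missed the threshold narrowly (limma, adjusted p = 0.0628, 95% interval 0.05 to 0.23). Other settings moved it to either side, with adjusted p = 0.0380 after quantile normalization and 0.0446 without T-ALL1, but 0.114 without the filter, 0.131 with arrays centred on the median and 0.415 with lines as replicates.

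The other bright REL probe sets had average differences of similar size. 206036_s_at averaged 0.17 ± 0.07 (limma, adjusted p = 0.177) and was above 0 in all 5 lines, from 0.03 in T-ALL1 to 0.34 in CEM. 235242_at averaged 0.12 ± 0.06 (adjusted p = 0.242), with 0.27 in CEM and -0.06 in T-ALL1. Neither passed, and with the actin difference as a covariate 206036_s_at reached 0.29 (adjusted p = 0.0360). The dim REL probe set 206035_at, at intensities of 12.02 to 18.7, averaged -0.03.

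The remaining REL probe set, 239486_at, behaved otherwise and was the 1 member probe set called in a single line. In T-ALL1 its intensities were 107.1 and 101.6 with NBD peptide and 40.2 and 34.3 with control peptide, a difference of 1.49 ± 0.38 or 2.81-fold (limma, adjusted p = 0.0384). In T-ALL1, 1 of 10 member probe sets was thus called higher and none lower, where the background was 2.83% and 2.85% (5.68% in all). The peptides overlapped in 3 of the other lines: DND41 had 35.3 and 74.1 with NBD peptide and 52.3 and 54.8 with control peptide, and CEM had 86.4 and 42.0 with NBD peptide and 55.1 and 47.2 with control peptide. KOPT-K had 63.2 and 96.3 with NBD peptide and 89.2 and 49.8 with control peptide, while HPB-ALL, with 72.9 and 70.5 with NBD peptide and 43.1 and 66.2 with control peptide, had its NBD arrays above. The F-test of a difference between lines did not pass (adjusted p = 0.378), and the average of 0.46 ± 0.17 did not either (adjusted p = 0.131). The T-ALL1 call was made against the control arrays with the actin differences of 3.16 and 2.05, and with that difference as a covariate the effect was 0.91 ± 0.80 (adjusted p = 0.694). It was also lost without either T-ALL1 control array (1.61, adjusted p = 0.145 without the first, and 1.37, adjusted p = 0.0562 without the second), without either T-ALL1 NBD array (1.45 with adjusted p = 0.217, and 1.53 with adjusted p = 0.112), and, with the value unchanged, without either DND41 control array (0.0531) or either HPB-ALL NBD array (0.0542).

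RELA encodes p65, the activating partner in the classical NF-kB dimer, and it showed no difference that passed. In CEM, 201783_s_at had intensities of 425.6 and 449.8 with NBD peptide and 409.3 and 430.8 with control peptide. DND41 had 426.8 and 434.7 with NBD peptide and 460.5 and 439.2 with control peptide, and HPB-ALL had 321.4 and 346.8 with NBD peptide and 333.1 and 352.3 with control peptide. Of these only DND41 was without overlap, with the NBD arrays below. KOPT-K had 525.1 and 532.6 with NBD peptide and 473.1 and 597.1 with control peptide, and T-ALL1 had 477.3 and 505.1 with NBD peptide and 708.5 and 495.7 with control peptide. A single T-ALL1 control array was the highest of the 20. The average difference was -0.06 ± 0.06 at 201783_s_at (limma, adjusted p = 0.621, 95% interval -0.20 to 0.07) and -0.04 ± 0.08 at 209878_s_at (adjusted p = 0.831, -0.20 to 0.12). In T-ALL1 the difference at 201783_s_at was -0.27 (adjusted p = 0.255) with all arrays and -0.53 (adjusted p = 0.00709) without the second T-ALL1 control array. Without the first it was -0.01 (adjusted p = 0.981), and with the actin covariate 0.45 (adjusted p = 0.274).

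NFKB1 encodes p105, which is both an IkB-like inhibitor and the source of p50. At 209239_at, T-ALL1 had intensities of 273.7 and 269.3 with NBD peptide and 170.3 and 236.6 with control peptide. KOPT-K had 421.1 and 414.0 with NBD peptide and 395.7 and 381.2 with control peptide. In these lines the NBD arrays lay above the control arrays without overlap. In CEM (260.6 and 282.5 with NBD peptide, 265.5 and 302.4 with control peptide), DND41 (368.4 and 314.5 with NBD peptide, 368.2 and 378.7 with control peptide) and HPB-ALL (184.5 and 193.9 with NBD peptide, 181.5 and 210.3 with control peptide) the groups overlapped and the differences were slightly negative. The average was 0.06 ± 0.06 (limma, adjusted p = 0.635, 95% interval -0.07 to 0.19). The T-ALL1 difference of 0.44 ± 0.13 had an adjusted p of 0.0707 with all arrays and was 0.67 (adjusted p = 0.00203) without the second T-ALL1 control array, when the F-test between lines also passed (adjusted p = 0.0248, against 0.323 with all arrays). Without the first T-ALL1 control array it was 0.20 (adjusted p = 0.502), and with the actin covariate it was -0.12 (adjusted p = 0.868). At NFKB1 and at RELA alike, then, the T-ALL1 difference lay further from 0 when the control array kept was the one with the actin excess of 3.16. The actin covariate turned its sign. These are not 2 separate results, since the covariate draws largely on the same 2 control arrays, whose actin values lie furthest apart within a group. In T-ALL1 the actin excess was 3.16 and 2.05 with control peptide and 1.07 and 0.992 with NBD peptide, so it cannot be told apart from the peptide there.

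NFKB2 encodes p100, the precursor of p52. All 3 of its probe sets were dim: 209636_at ranged from 20.1 to 32.3 in intensity over the 20 arrays with a median of 28.1, 207535_s_at from 16.3 to 33.6 and 211524_at from 12.6 to 21.1. At 209636_at the NBD arrays of HPB-ALL (25.1 and 28.5) lay above the control arrays (24.4 and 23.3). CEM had 31.0 and 28.3 with NBD peptide and 31.8 and 20.1 with control peptide, DND41 had 30.1 and 25.7 with NBD peptide and 29.1 and 25.3 with control peptide, KOPT-K had 23.5 and 25.6 with NBD peptide and 30.4 and 24.8 with control peptide, and T-ALL1 had 32.3 and 28.0 with NBD peptide and 29.3 and 30.2 with control peptide. These 4 lines overlapped. In a fit without the filter the average differences were 0.06, 0.08 and 0.03 (limma, adjusted p = 0.809, 0.607 and 0.877) and none passed.

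BCL3 was read by 2 probe sets that did not move together, with r = -0.09 over the 20 arrays after each line was centred on its mean. At 204907_s_at, intensities were 32.5 and 32.8 with NBD peptide and 33.0 and 37.4 with control peptide in KOPT-K, and 38.2 and 32.0 with NBD peptide and 33.4 and 30.1 with control peptide in T-ALL1. CEM had 25.9 and 23.1 with NBD peptide and 22.7 and 23.5 with control peptide, DND41 had 23.1 and 21.6 with NBD peptide and 21.5 and 27.1 with control peptide, and HPB-ALL had 23.9 and 22.7 with NBD peptide and 22.9 and 24.1 with control peptide, all below the filter value. The KOPT-K control arrays lay above its NBD arrays, and the other lines overlapped. The average difference was -0.00 ± 0.05 (limma, adjusted p = 0.991). At 204908_s_at, CEM had 30.7 and 30.2 with NBD peptide and 19.5 and 17.1 with control peptide, and HPB-ALL had 48.1 and 31.4 with NBD peptide and 34.6 and 23.9 with control peptide. The CEM peptides were apart but below the filter value, and those of HPB-ALL overlapped. The other 3 lines lay between 13.2 and 20.5. Its average of 0.31 ± 0.10 did not pass (adjusted p = 0.0856, and 0.0400 without the second HPB-ALL NBD array), nor did the CEM difference of 0.74 ± 0.22 (adjusted p = 0.179).

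Line by line, none of the 10 tested member probe sets was called in KOPT-K, HPB-ALL, DND41 or CEM. In CEM, 0.212% of all probe sets were called higher and 0.42% lower (0.632% in all), in DND41 0.382% and 0.826% (1.21%), in HPB-ALL 0.072% and 0.303% (0.375%), and in KOPT-K 0.651% and 0.186% (0.837%). Unadjusted p-values below 0.05 were reached by 5 of 10 in CEM (11.9% of all probe sets), 2 in HPB-ALL (8.8%), 2 in T-ALL1 (23.5%) and none in DND41 (12.7%) or KOPT-K (10.6%). NBD arrays lay above control arrays without overlap at 5 of the 10 in CEM (background 18.8%), 4 in DND41 (22.7%), 4 in HPB-ALL (21.6%), 2 in KOPT-K (20.5%) and 2 in T-ALL1 (23.2%). They lay below at none in CEM (28.6%), 1 in DND41 (24.8%), 1 in HPB-ALL (26%), 1 in KOPT-K (20.4%) and none in T-ALL1 (22.3%). RELB and REL supplied 4 of the 5 probe sets that lay above without overlap in CEM. The same 5 had the unadjusted p-values below 0.05 in CEM, and several of them read the single gene REL. No F-test of a difference between lines passed for any of the 10 (background 1.09%).

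The levels of these transcripts also differed between lines, in a data set where 36.6% (DND41 against CEM), 43.9% (HPB-ALL against CEM), 42.6% (HPB-ALL against DND41) and 50.9% (T-ALL1 against KOPT-K) of all probe sets passed the same test. NFKB1 had the largest such differences among the probe sets that reached the filter value on all arrays. On control arrays it averaged 7.61 ± 0.15 in HPB-ALL, 8.54 ± 0.03 in DND41 and 8.15 ± 0.13 in CEM (SD, n = 2), and 7.65 ± 0.34 in T-ALL1 and 8.60 ± 0.04 in KOPT-K. HPB-ALL was 0.93 below DND41 (limma, adjusted p = 5.08e-05) and T-ALL1 was 0.95 below KOPT-K (adjusted p = 3.47e-05), which are 1.91-fold and 1.93-fold lower levels, and both calls held whichever array was left out. The T-ALL1 control arrays compared here are those with the actin excess of 3.16 and 2.05, against 0.739 and 1.14 on the KOPT-K control arrays. On the NBD arrays of these lines NFKB1 averaged 8.08 ± 0.02 in T-ALL1 and 8.71 ± 0.02 in KOPT-K, a difference of -0.62. DND41 was 0.40 above CEM (adjusted p = 0.0305) and HPB-ALL differed from CEM by -0.54 (adjusted p = 0.00447). The first of these was lost without the first CEM control array (0.30, adjusted p = 0.186) and without either DND41 control array (0.42 and 0.38, adjusted p = 0.0879 and 0.122), and the second without the first HPB-ALL control array (-0.43, adjusted p = 0.0550).

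RELB ran in another order. It averaged 5.78 ± 0.29 in HPB-ALL, 5.34 ± 0.08 in DND41 and 5.26 ± 0.20 in CEM on control arrays (SD, n = 2), and 5.46 ± 0.29 in T-ALL1 and 5.18 ± 0.09 in KOPT-K. The contrasts of DND41 with CEM (0.08, limma, adjusted p = 0.782) and of T-ALL1 with KOPT-K (0.27, adjusted p = 0.204) did not pass. HPB-ALL exceeded CEM by 0.52 (adjusted p = 0.0232) and DND41 by 0.44 (adjusted p = 0.0499). Without the first HPB-ALL control array these became 0.31 (adjusted p = 0.238) and 0.24 (adjusted p = 0.381), and without the second CEM control array the first was 0.38 (adjusted p = 0.176). The contrast with DND41 stood so close to the threshold that leaving out any 1 of 13 arrays lost the call, as did leaving off the filter (adjusted p = 0.0669) and centring arrays on the median (adjusted p = 0.0603).

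REL at 228812_at averaged 9.07 ± 0.12 in HPB-ALL, 9.34 ± 0.11 in DND41 and 9.07 ± 0.15 in CEM (SD, n = 2), and 9.47 ± 0.11 in T-ALL1 and 9.26 ± 0.02 in KOPT-K. DND41 was 0.27 above CEM (limma, adjusted p = 0.0358) and HPB-ALL was lower than DND41 by the same amount (-0.27, adjusted p = 0.0314), HPB-ALL and CEM differed by 0.00 (adjusted p = 0.997), and the difference of T-ALL1 from KOPT-K missed the threshold (0.21, adjusted p = 0.0800). Without the first DND41 control array the contrasts of DND41 with CEM and HPB-ALL with DND41 were 0.19 (adjusted p = 0.253) and -0.19 (adjusted p = 0.235), without the first CEM control array the contrast of DND41 with CEM was 0.16 (adjusted p = 0.289), and without the second HPB-ALL control array that of HPB-ALL with DND41 was -0.19 (adjusted p = 0.237). Both calls were also lost without the filter (adjusted p = 0.0651 for DND41 with CEM and 0.0566 for HPB-ALL with DND41). That of DND41 with CEM was lost with arrays centred on the median (adjusted p = 0.0512). At the other REL probe sets tested, no level contrast passed. DND41 minus CEM was 0.20 at 235242_at, 0.16 at 206036_s_at and 0.07 at 239486_at (limma, adjusted p = 0.234, 0.459 and 0.915). HPB-ALL minus DND41 was -0.17, -0.13 and -0.00 there (adjusted p = 0.309, 0.535 and 0.997). RELA at 201783_s_at averaged 8.42 ± 0.06 in HPB-ALL, 8.81 ± 0.05 in DND41 and 8.71 ± 0.05 in CEM, and 9.21 ± 0.36 in T-ALL1 and 9.05 ± 0.24 in KOPT-K. HPB-ALL was lower than DND41 (-0.39, adjusted p = 0.0341), a call lost on leaving out any 1 of the 4 arrays compared (-0.35 to -0.43). CEM and DND41 (adjusted p = 0.638), HPB-ALL and CEM (-0.29, adjusted p = 0.105) and T-ALL1 and KOPT-K (adjusted p = 0.378) did not pass. The control arrays of HPB-ALL, at 8.38 and 8.46, nevertheless lay below those of CEM, at 8.68 and 8.75. The test shares 1 spread over all groups, and at 201783_s_at the SD was widest on the control arrays of T-ALL1 (0.36) and KOPT-K (0.24). On the NBD arrays of these lines it was 0.06 and 0.01. At the other RELA probe set, 209878_s_at, no level contrast passed. HPB-ALL differed there from DND41 by -0.13 and from CEM by -0.12 (limma, adjusted p = 0.598 and 0.606).

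BCL3 gave different orders at its 2 probe sets. At 204908_s_at, HPB-ALL averaged 4.85 ± 0.38 and exceeded DND41 (3.90 ± 0.25) by 0.95 (limma, adjusted p = 0.00311) and CEM (4.19 ± 0.13) by 0.65 (adjusted p = 0.0279). This probe set was tested only because 2 HPB-ALL arrays reached the filter value, so that line had to be high. The calls were lost without the first HPB-ALL control array, at 0.68 (adjusted p = 0.0512) and 0.39 (adjusted p = 0.267), and that with CEM also without either CEM control array (0.75 and 0.56, adjusted p = 0.0521 and 0.140). At 204907_s_at no contrast passed, with 4.99 ± 0.11 in T-ALL1 and 5.13 ± 0.13 in KOPT-K (adjusted p = 0.331), and 4.53 to 4.59 in the other lines.

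**Figure D3:**
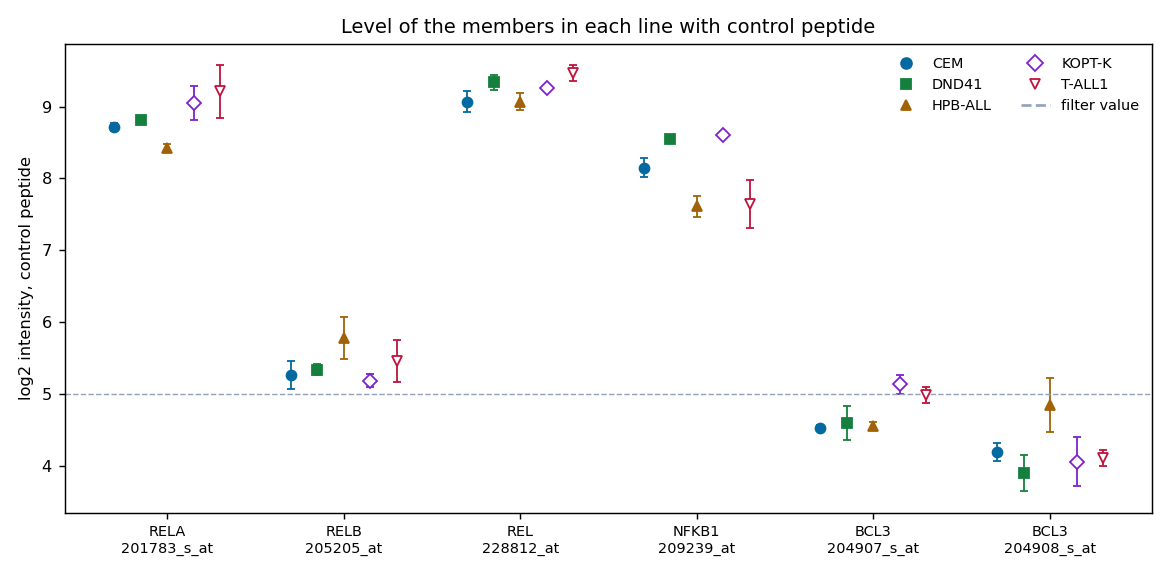
Mean log2 intensity on the 2 control-peptide arrays of each line (vertical axis) with SD bars, for 6 member probe sets; open markers are the lines of the other processing run and the dashed line is the filter value. Only lines within 1 probe set and 1 run can be compared: NFKB1 is lower in HPB-ALL than in DND41 and lower in T-ALL1 than in KOPT-K, and RELB is higher in HPB-ALL than in CEM.

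After each line was centred on its mean, RELB moved with REL over the 20 arrays, at r = 0.74 with 228812_at, 0.64 with 235242_at and 0.61 with 206036_s_at. Its r was 0.63 with the BCL3 probe set 204908_s_at, 0.08 with the BCL3 probe set 204907_s_at, 0.13 with RELA at 201783_s_at and -0.33 with NFKB1. The REL probe sets 235242_at and 206036_s_at had r = 0.90 with each other, and 239486_at had r = 0.21 with 228812_at. RELA at 201783_s_at and NFKB1 had r = -0.65. These values describe points that share the peptide and the normalization of their run, and the first T-ALL1 control array, with the highest RELA and the lowest NFKB1 value of its line, lies far from the rest in the relation of RELA and NFKB1.

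**Figure D4:**
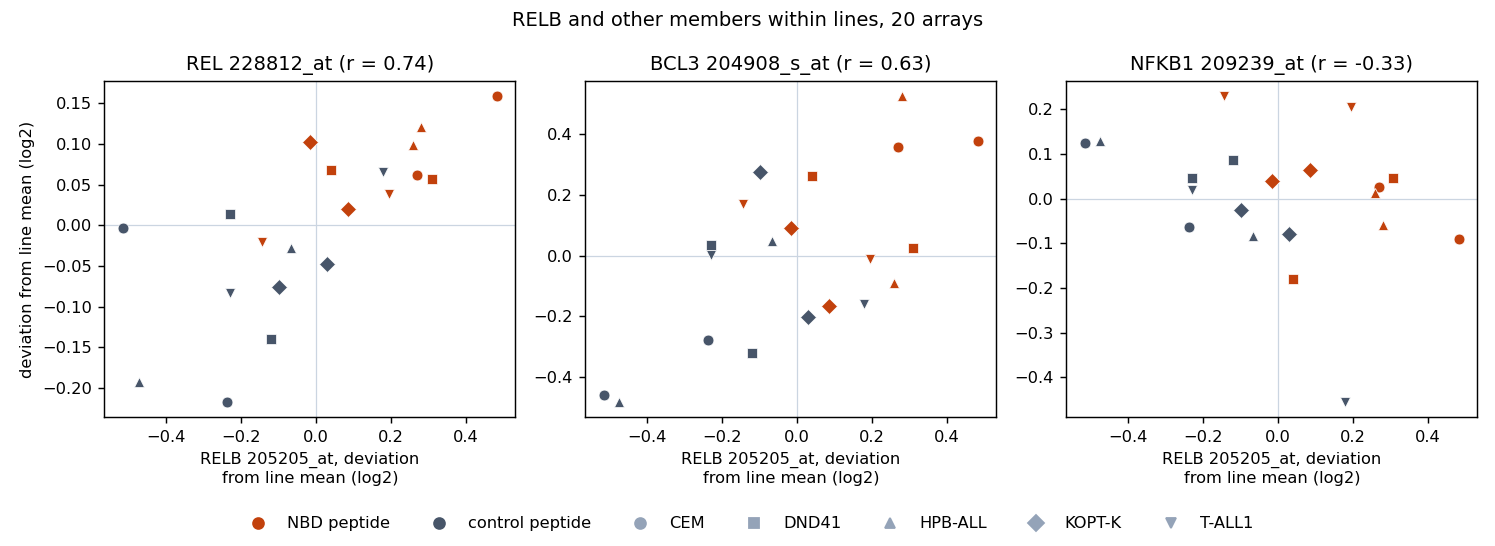
Log2 deviation from the line mean of RELB 205205_at (horizontal axes) against that of REL, BCL3 and NFKB1 (vertical axes) on 20 arrays, NBD peptide in orange and control peptide in grey, with a marker shape per line. RELB and REL 228812_at rise and fall together (r = 0.74), whereas NFKB1 has a weak negative relation (r = -0.33).

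Ranked by Pearson r over the 20 arrays after each run was centred, the probe sets whose levels were most like each member were RAD54L2 (0.947) and NACC1 (0.938) for RELA, GMFB (0.793) and TET3 (0.791) for RELB, ZBTB41 (0.877) and SC5D (0.844) for REL, and ARL6IP5 (0.978) and USF1 (0.960) for NFKB1. They were QSOX1 (0.891) and MLYCD (0.886) for NFKB2, and LINC02171 (0.760) and LOC285638 (0.742) for BCL3. With each line centred instead, so that peptide and array remain, they were RNF216 (0.942) and RBM23 (0.940) for RELA, INSIG1 (0.840) and NPC2 (0.830) for RELB, ZNF644 (0.873) and TAOK1 (0.863) for REL, YRDC (0.962) and CCT4 (0.932) for NFKB1, GPR26 (0.897) and KIAA1614 (0.892) for NFKB2, and LOC285638 (0.791) and LINC02171 (0.786) for BCL3. These are the highest of 26406 values per member, all arrays share their line and run, and the rank carries no test. With each line centred, the first T-ALL1 control array lies far from the rest for RELA and for NFKB1, and its share in their r values was not tested. The NFKB2 values are those of 209636_at, a dim probe set below the filter. The BCL3 values are those of 204907_s_at alone, which reached the filter value on 7 arrays only, all of KOPT-K or T-ALL1.

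Of 42 tested genes that hold, activate, process or modify the subunits, each read at its brightest probe set alone, 3 were called for the average effect. This share is near the 6.17% of all probe sets. In the fit with 1 probe set per gene, 311 of 13881 were called higher and 857 lower. Among the 6 IkB family genes, 1 was called higher and none lower: NFKBIA, which encodes the inhibitor IkBα, rose by 0.33 ± 0.04 (limma, adjusted p = 0.000254) and was above 0 in all 5 lines. Its difference ran from 0.01 in T-ALL1 to 0.50 in DND41. None of 9 genes of the IKK complex and the non-canonical arm was called, the largest differences being -0.11 for the kinase gene IKBKB (adjusted p = 0.260) and 0.10 for TRAF3, a brake on the non-canonical arm (adjusted p = 0.254). None of 9 genes for the processing of p105 and p100 was called either, the largest differences being -0.26 for MAP3K8, the kinase that p105 holds inactive (adjusted p = 0.101), and -0.12 for RNF123, a ubiquitin ligase for p105 (adjusted p = 0.276). Of 18 nuclear partners and modifiers, SETD7, a methyltransferase that acts on RELA, rose by 0.16 (adjusted p = 0.0122) and COMMD1, which promotes the removal of RELA from chromatin, fell (-0.16, adjusted p = 0.0347).

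Of 20 tested NF-kB target genes, each read at its brightest probe set alone, 4 were called higher and 1 lower, beside 2.13% and 4.03% of all probe sets. CD83, an activation marker of lymphocytes and dendritic cells, rose by 0.33 (limma, adjusted p = 0.00207), TNFAIP3, which encodes the feedback inhibitor A20, by 0.33 (adjusted p = 0.000105), NFKBIA, counted in both lists, by 0.33 and IER3, an early response gene, by 0.26 (adjusted p = 0.00830). All 4 were above 0 in every line, but unevenly. IER3 was 0.81 in KOPT-K and 0.04 (CEM) to 0.19 (HPB-ALL) elsewhere, and TNFAIP3 was 0.80 in KOPT-K and 0.15 (CEM) to 0.31 (DND41) elsewhere. MYB, a transcription factor of immature T cells, fell (-0.15, adjusted p = 0.0183), although it was above 0 in DND41 and T-ALL1. The medians of the lists were 0.03 for the IkB family, 0.02 for the IKK complex and the non-canonical arm, -0.02 for processing, -0.02 for nuclear partners and 0.04 for targets, beside -0.00 over all probe sets tested. The lists were assembled with earlier results of these data known, so their counts are not independent evidence.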

How the data were processed

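The deposited table holds 1 linear intensity for each of 54675 probe sets on each of 20 Affymetrix U133 Plus 2.0 arrays. Per the submitters' processing notes, the authors used RMA, the robust multi-array average method (version not given in the sources used here). Per the labels' protocols, 20 ng of total RNA went through 2-cycle amplification and biotin labelling. The 2 sets of columns with different decimals and means are called processing runs, an inference from the values.

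Intensities were taken to log2 without a pseudocount. Of the probe sets, 41097 carry 1 gene symbol in the platform annotation and 178 carry 1 gene and a microRNA and were named for the gene. Both BCL3 probe sets are of the latter kind, being listed with MIR8085, a microRNA gene within BCL3. The 1623 with several genes and the 11777 with none were not tested. A probe set was tested if it reached an intensity of 31.96, the median of all deposited values, on at least 2 arrays, which kept 26406 after control probe sets were removed.

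All tests used limma 3.58.1 in R 4.3.3 (lmFit, eBayes) with 1 mean per group over all 20 arrays, 10 residual and 3.42 prior degrees of freedom, and Benjamini-Hochberg adjustment over all 26406 probe sets at 0.05. Contrasts were NBD minus control per line, their equally weighted mean, an F-test of differences between lines, and control-level contrasts within a run. An array has no read depth, and 2 arrays per group limit the precision. On data drawn with known changes over 26406 probe sets, the average test recovered 95% of changes of 0.5 and 100% of changes of 1. Within single lines, changes of 0.5 were recovered at 24% to 40% and changes of 1 at 88% to 91%. Each probe set was drawn with the same spread and the same change in every line, so these rates do not rank the lines. The wider spread of the T-ALL1 control arrays (median SD 0.153, against 0.0952 in the next widest group, KOPT-K control) was not part of the draw.

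The average NBD effect is reported for every member probe set, and control levels are compared between lines for those that were tested. Array values are printed for probe sets called on average or in a line and for the brightest of each other member. From each pathway list the called genes are named, or the 2 largest where none was called. For each member the 2 most similar genes are named. The members and lists were chosen with earlier results of these data known. The alternatives tried were other normalizations, filters, priors and a pseudocount of 16, 1 probe set per gene, a replicate block, lines as replicates, each run alone, an actin covariate, and leaving out lines or arrays, of which leaving out KOPT-K, HPB-ALL, DND41 or CEM was chosen after seeing the data. Labels do not state whether same-numbered arrays were paired. The deviations of same-numbered arrays correlated at -0.37 in KOPT-K, -0.28 in T-ALL1, -0.08 in HPB-ALL, -0.06 in CEM and 0.21 in DND41. With 2 arrays per group these values cannot settle the question.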

Additional observations from a re-analysis of the deposited data

How the results depend on the processing

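Of 3037 recomputed values, 2851 kept their direction and side of the threshold, 98 that were called in neither setting changed sign (23 averages, 44 line effects and 31 level contrasts), 51 lost a call, 23 gained one, none turned the sign of a call and 14 were counts that moved. The average RELB effect of 0.35 stayed at 0.352 with the replicate block (adjusted p = 0.0758) and with lines as replicates (adjusted p = 0.327), and was 0.0602 in the run of KOPT-K and T-ALL1, 0.252 without the CEM line and 0.306 without the HPB-ALL line, and it lost its call in each of these fits. It ranged from 0.312 to 0.393 without single arrays (adjusted p = 0.00743 to 0.0401). The average REL effect at 228812_at became a call at 0.145 with quantile normalization, 0.141 with 1 probe set per gene and with the trended robust prior, 0.172 without the T-ALL1 line and 0.137 with a pseudocount of 16, and ranged from 0.120 to 0.162 without single arrays, passing without the first T-ALL1 control array or the second CEM control array. It stayed uncalled with arrays centred on the median (adjusted p = 0.131), no filter (0.114), the replicate block (0.191) and lines as replicates (0.415). The count of member probe sets called higher, 1 as reported, was 2 under those 5 settings and under the actin covariate, and 0 with the replicate block, with lines as replicates, in the run of KOPT-K and T-ALL1, without the CEM line and without the HPB-ALL line. It was 1 to 2 without single arrays. Over all probe sets, calls for the average were 563 higher and 1065 lower, against 151 and 275 with the replicate block, 0 and 0 with lines as replicates, 20 and 5 in the run of KOPT-K and T-ALL1, 209 and 773 in the run of the other 3 lines, and 1717 and 2335 without the second T-ALL1 control array. The average effects of RELA (201783_s_at), NFKB1 and BCL3 (204907_s_at) were called under none of the settings, although with the actin covariate the RELA value was 0.08 and the NFKB1 value -0.05, signs opposite to those reported. With the replicate block the size of the RELB effect was unchanged and only its call was lost. Whether same-numbered arrays belong together is not stated in the labels and could not be settled from the values. The cause of these changes was not tested beyond the fewer arrays or tests that a setting holds by construction. For NFKB2 and BCL3, most values lay below the filter value.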
